A study of Homo sapiens with 48 samples.

Results

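The genes described here are 36 genes of the endoplasmic reticulum, the compartment in which secreted and membrane proteins are folded: chaperones, protein disulfide isomerases, the sensors of misfolded protein, and genes of protein import and degradation. They were taken by gene symbol from a count table of 27978 symbols and read in all 48 libraries. The list was drawn up with earlier results of these data known. EDEM2 did not pass the filter on low counts, so 35 of the 36 were tested among 15789 genes. The cells were H1975, an established line of human non-small cell lung cancer with a mutated EGFR gene. There were 16 groups of 3 libraries, and the series text describes each group as biological replicates. Of the groups without treatment, one was harvested at 0 h and one at 24 h. Gefitinib, an inhibitor of the EGFR kinase, was given at 50 or 75 µM, CKI (compound kushen injection) at 1 or 2 mg/mL, and YFSJ, a preparation that the labels name only by these letters, at 2.5 or 5 mg/mL. The remaining 8 groups paired each gefitinib dose with each dose of CKI or of YFSJ. All groups shared the same line and serum-containing medium, no group is labelled as given a carrier alone, and p-values measure the spread between cultures of this single line.

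The endoplasmic reticulum folds new proteins with chaperones of the HSP70, HSP90 and lectin families and closes their disulfide bonds with isomerases. When misfolded protein builds up, the sensors IRE1 (gene ERN1), PERK (gene EIF2AK3) and ATF6 start the unfolded protein response. IRE1 splices the XBP1 mRNA so that it encodes an active transcription factor, ATF6 is cleaved into one, and PERK slows translation while raising ATF4 and CHOP. Proteins that stay misfolded are drawn back through the membrane and passed to the proteasome, a route known as endoplasmic reticulum-associated degradation. Gene counts do not separate spliced from unspliced XBP1 mRNA and say nothing of the activity of the sensor proteins.

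Promoters of these genes are known for short elements that bind the transcription factors of this response, so the elements are shown before the expression values. RefSeq promoter sequences (GRCh38.p14) were at hand for 32 of the 36 genes, and the 250 bases before the transcription start were searched on both strands. The element ERSE was searched as CCAAT and CCACG with any 9 bases between them, ERSE-II as ATTGG and CCACG with any 1 base between them, and the UPRE as TGACGTGG. Each gene was counted once over all its promoter windows. ERSE was found in 7 of these 32 genes and in 0.0916% of all 27305 genes with a promoter sequence. ERSE-II was found in 3 and in 0.0659%, and the UPRE in 4 and in 0.780%. Each site is given 5′ to 3′ on the strand that carries the motif, with 6 flanking bases on each side and the fixed bases in capitals. The ERSE sites were:
HSPA5: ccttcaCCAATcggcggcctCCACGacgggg
HSP90B1 upstream site: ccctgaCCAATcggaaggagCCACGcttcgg
HSP90B1 downstream site: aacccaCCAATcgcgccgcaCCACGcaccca
CALR: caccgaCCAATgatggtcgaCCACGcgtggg
CANX: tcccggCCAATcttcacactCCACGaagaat
CRELD2: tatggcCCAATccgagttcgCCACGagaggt
PDIA6: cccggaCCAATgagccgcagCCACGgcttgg
XBP1: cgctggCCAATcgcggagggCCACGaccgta
The ERSE-II sites were:
HERPUD1: acgccgATTGGgCCACGttggga
HYOU1 upstream site: cctgggATTGGaCCACGtcacgg
HYOU1 downstream site: gtactcATTGGaCCACGtcccag
SDF2L1: gttttgATTGGtCCACGcttccg
The UPRE sites were:
HYOU1: gccccgTGACGTGGtccaat
DNAJC10: ttaggtTGACGTGGcggtgt
TXNDC5: ggcggcTGACGTGGcgctcg
SSR3: ccttgcTGACGTGGctgtta

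Measured from the base of a site closest to the transcription start, the ERSE of XBP1 lay 34 bases before the start and that of CALR 207, the nearest and farthest of the 8 ERSE sites. The UPRE of HYOU1 overlapped its upstream ERSE-II site on the opposite strand. The whole windows of HSPA5, the gene of the main HSP70 chaperone, and of HERPUD1, a membrane protein of the degradation route, are printed because these genes rose both with gefitinib and with CKI. The window of HSPA5 lies on the minus strand of chr9:125241344-125241593 and that of HERPUD1 on the plus strand of chr16:56931892-56932141, with the element in capitals:
HSPA5: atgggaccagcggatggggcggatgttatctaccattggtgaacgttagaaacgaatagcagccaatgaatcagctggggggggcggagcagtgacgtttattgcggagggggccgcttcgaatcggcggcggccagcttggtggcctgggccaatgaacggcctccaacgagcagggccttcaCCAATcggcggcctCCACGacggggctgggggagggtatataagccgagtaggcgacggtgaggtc
HERPUD1: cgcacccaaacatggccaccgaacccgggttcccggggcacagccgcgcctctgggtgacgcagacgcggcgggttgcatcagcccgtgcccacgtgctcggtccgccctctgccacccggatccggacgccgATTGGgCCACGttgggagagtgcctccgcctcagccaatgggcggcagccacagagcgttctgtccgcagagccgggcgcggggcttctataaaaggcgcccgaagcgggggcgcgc
A match to these letters is a description of the sequence and not a measured binding site.

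Totals ran from 16428398 to 26264162 counts per library, and the level that 3 counts represent ranged from 0.114 to 0.183 CPM of the unscaled total (counting error only). CPM is the usual read count relative to library size, here with the total scaled by its TMM factor. The labels also cite a supplier number of the breast line MCF-7. Of 11 markers of lung adenocarcinoma epithelium 8 had a median of at least 1 CPM, with NKX2-1, a lung lineage factor, at 44.7 CPM and the surfactant genes SFTPA1 and SFTPC at 0. Of 8 luminal breast markers 3 did, XBP1 (which is also among the 36), GREB1 at 7.10 CPM and FOXA1 at 2.17 CPM, while the estrogen receptor gene ESR1 was at 0.125 CPM and the progesterone receptor gene PGR at 0. Plasma cells carry a large endoplasmic reticulum, and of 9 plasma and B cell markers 2 had a median of at least 1 CPM. Liver transcripts marked 10 libraries, with 2581 to 3557 ALB counts there against 0 to 8 in the other 38; these 10 were all libraries of YFSJ at 2.5 mg/mL and of CKI at 2 mg/mL with gefitinib at 75 µM, 2 of CKI at 2 mg/mL with gefitinib at 50 µM, and 2 of CKI at 1 mg/mL with gefitinib at 75 µM. The 0 h libraries were uneven, with RNR2 at 1.22%, 1.69% and 0.457% of counts. Some of the 36 genes overlap another gene, the libraries were unstranded, and how reads in overlaps were counted is not given in the sources used here. EDEM2, a lectin-like protein of degradation, had a median of 4 counts beside 30 for the read-through gene MMP24-AS1-EDEM2. DERL3, a derlin of the degradation channel, had a median of 140 counts beside 3580.5 for SMARCB1, so its values are uncertain. TXNDC5, a thioredoxin-domain isomerase, had a median of 110.5 counts and overlaps the read-through gene BLOC1S5-TXNDC5, which was at 0. SYVN1, DERL2, TXNDC11, SEC61A1 and PDIA3 also overlap expressed neighbours.

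Across the 16 groups, the highest mean fell in a group with CKI and gefitinib together for 21 of the 35 tested genes and in untreated cells for 8. Of the 21, 7 fell with the lower CKI dose and gefitinib at 75 µM, a group with an outlying library. Of the 8, 6 fell in the uneven 0 h libraries. The lowest mean fell in a group with gefitinib, alone or with YFSJ, for 15 genes and in untreated cells for 11. Of the 15, 10 were at the lower doses of YFSJ and gefitinib together, where 0 of 35 genes were called against gefitinib alone. These groupings hold different numbers of groups. The counts were not made for all genes tested, so they do not set the 35 genes apart. The widest range was that of DNAJB9, an HSP40 co-chaperone of HSPA5, from 10.8 CPM in untreated cells at 0 h to 90.4 CPM with CKI at 2 mg/mL and gefitinib at 75 µM, followed by HERPUD1, from 42.3 CPM with YFSJ at 5 mg/mL to 199 CPM in that same pairing. DERL1 and P4HB varied least, with highest group means 1.25 and 1.26 times the lowest. The summed level of all 36 genes was 8102 ± 169 CPM (SD, n = 3) in untreated cells at 24 h, 7547 ± 56.7 CPM with gefitinib at 75 µM, 9820 ± 341 CPM with CKI at 2 mg/mL and 10206 ± 52.3 CPM with both. This sum is carried by the genes with most counts, such as CALR and HSPA5. In bulk RNA, fewer cells of a type and less RNA per cell cannot be told apart.

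**Figure D1:**
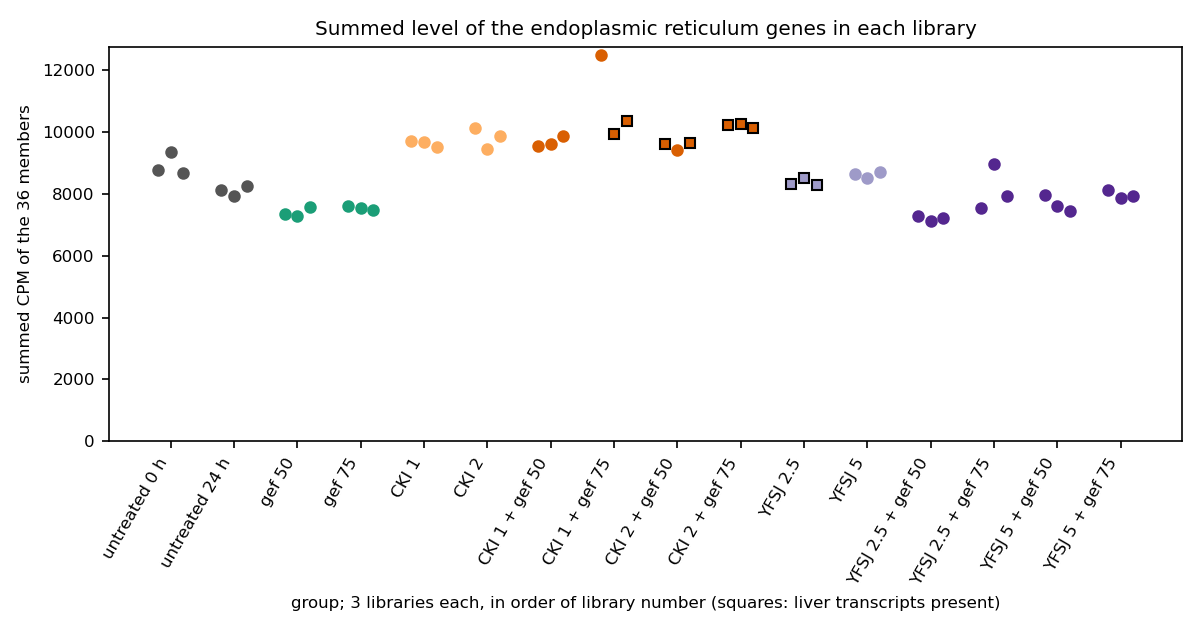
Summed CPM of the 36 genes (vertical axis) in each of 48 libraries, by group (horizontal axis, 3 libraries each in order of library number); squares mark the 10 libraries with liver transcripts. The groups with CKI sit above those with gefitinib or YFSJ without it, and library 1 of CKI at 1 mg/mL with gefitinib at 75 µM is the highest at 12487 CPM.

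**Figure D2:**
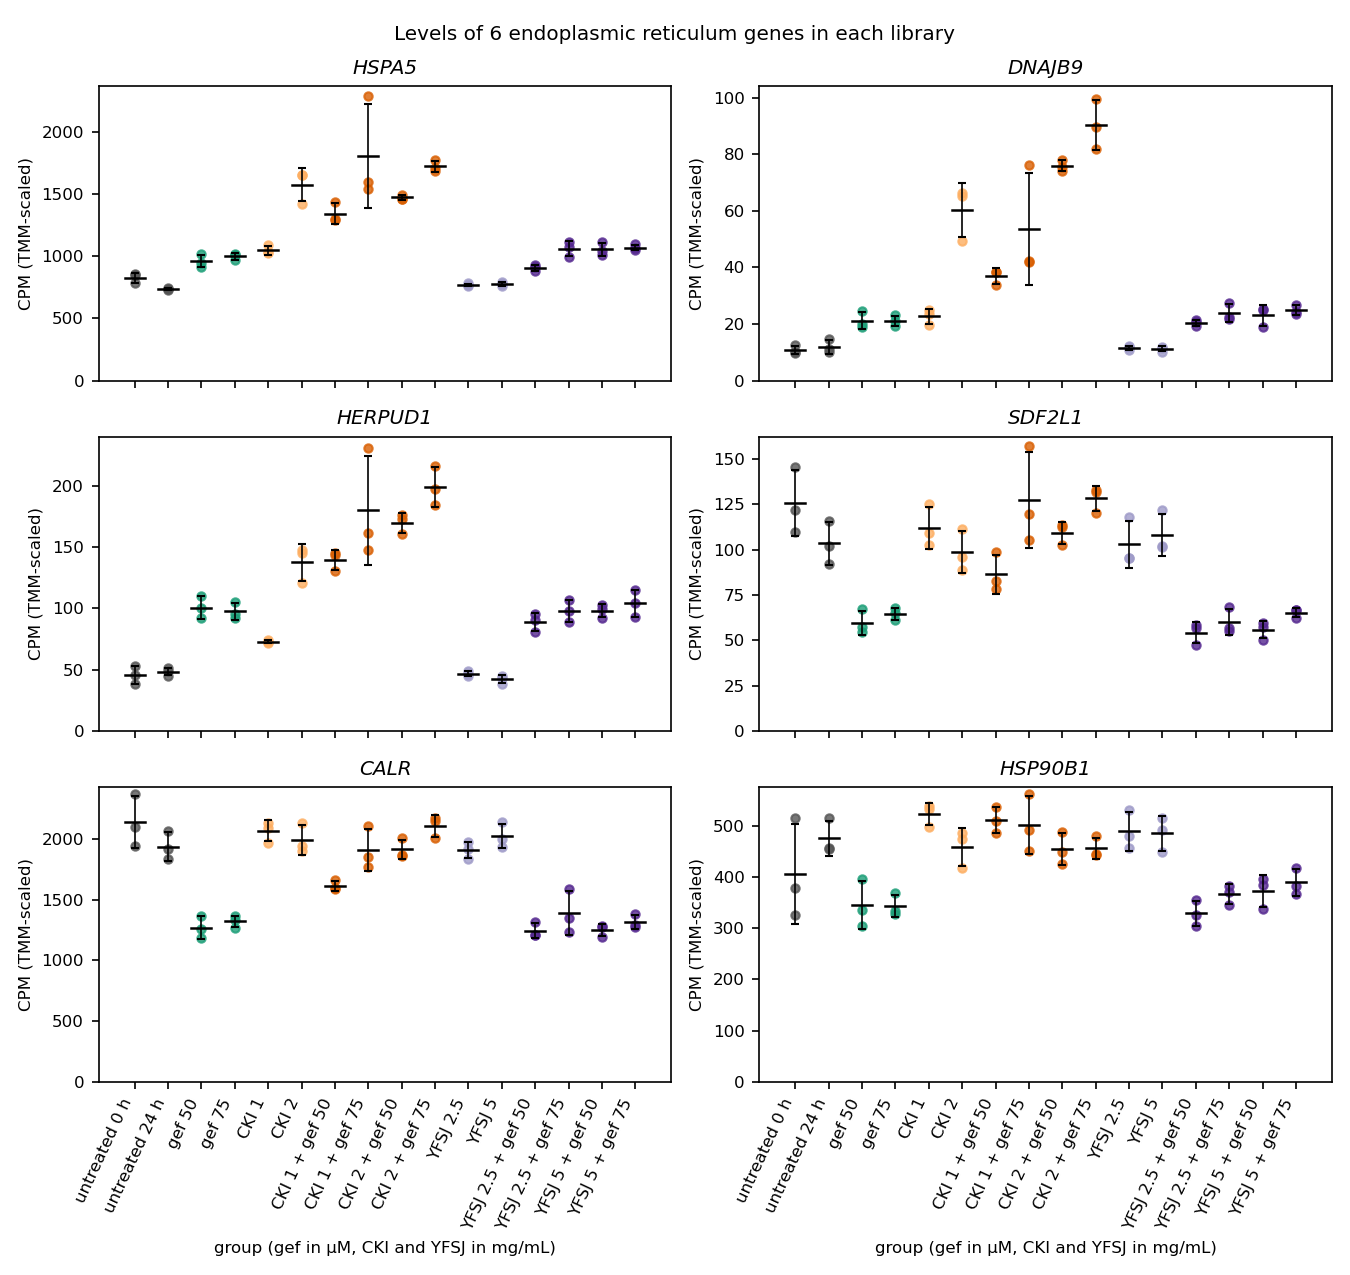
CPM of HSPA5, DNAJB9, HERPUD1, SDF2L1, CALR and HSP90B1 (vertical axes, from 0) in each library of the 16 groups; points are libraries, long bars group means and whiskers 1 SD. HSPA5, DNAJB9 and HERPUD1 are above untreated cells in the groups with CKI and in those with gefitinib. HERPUD1 with CKI at 1 mg/mL alone, at 74.6, 71.7 and 72.3 CPM, is below its level with gefitinib alone. SDF2L1, CALR and HSP90B1 are low in the groups with gefitinib that have no CKI.

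Gefitinib was set against the untreated 24 h cells, so an effect of the drug and one of any carrier cannot be told apart. With gefitinib at 75 µM, 11 of 35 genes rose and 9 fell, at adjusted p under 0.05 over all genes tested; of all genes tested 54.7% were called, 27.6% higher and 27.1% lower. The median log2 fold change of the 35 was -0.05, against 0.02 for all genes tested. The share of the 35 that was called, 57.1%, was thus near that of all genes. Libraries at 75 µM lay wholly above the untreated ones for 14 of the 36 genes and wholly below for 12. The same held for 31.8% and 30.4% of all genes tested, so a lack of overlap was common. The share of counts in the mitochondrial rRNA gene RNR2 was 0.674% to 0.886% at 75 µM and 0.655% to 0.868% at 50 µM, above the 0.464% to 0.582% of untreated cells, and its part in these results was not tested. By role, 3 of 4 sensor genes (XBP1 included) and 3 of 7 degradation genes rose, while 0 and 1 fell. Of 12 chaperone genes 3 rose and 5 fell.

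Among the sensors, EIF2AK3 stood at 15.9, 13.98 and 13.6 CPM in untreated cells and at 29.9, 29.9 and 28.99 CPM with gefitinib at 75 µM. Every treated library lay above every untreated one, a log2 fold change of 1.03 ± 0.14 (adjusted p = 3.23e-08) by edgeR's quasi-likelihood test with Benjamini-Hochberg adjustment, as for all adjusted p-values given here, or 2.04-fold. XBP1 went from 113, 99.96 and 115 CPM to 187, 180.3 and 179 CPM, by 0.74 ± 0.09 (adjusted p = 5.81e-09), and ERN1 rose by 0.70 ± 0.13 (adjusted p = 1e-05). The groups did not overlap for either gene. ATF6 passed in neither direction.

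Of the 7 tested degradation genes 3 rose and 1 fell, where 27.6% of all genes tested rose and 27.1% fell. HERPUD1 had 51.02, 48.5 and 45.1 CPM in untreated cells and 95.4, 105 and 92.1 CPM with gefitinib at 75 µM, 2.02-fold and 1.02 ± 0.12 (adjusted p = 4.96e-10) on the log2 scale. The treated libraries all lay above the untreated ones. SYVN1, the ubiquitin ligase of this route, rose by 0.54 ± 0.14. Its partner SEL1L rose by 0.32 ± 0.14 (adjusted p = 0.0463), a call that was lost without any 1 of untreated libraries 2 and 3 or gefitinib libraries 1, 2 and 3, and with the replicate number as a block. DERL3 fell by 0.68 on the log2 scale while its overlapping neighbour SMARCB1 was at -0.38 (adjusted p = 0.00124).

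The 12 chaperones and co-chaperones divided into 3 that rose, 5 that fell and 4 that did not pass. Of all genes tested 27.6% rose and 27.1% fell. DNAJB9 had 14.7, 11.01 and 9.98 CPM in untreated cells and 23.03, 19.2 and 20.9 CPM with gefitinib at 75 µM, 0.82 ± 0.17 (adjusted p = 8.43e-05) on the log2 scale. HSPA5, which encodes BiP, rose from 746, 724 and 736 CPM to 1010.4, 1016 and 966 CPM, by 0.44 ± 0.09 (adjusted p = 4.23e-05). In both genes the lowest treated library was above the highest untreated one. HYOU1, an HSP110-type exchange factor for BiP, rose by 0.30 ± 0.09.

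CALR, the lectin chaperone calreticulin, had 1839, 1917 and 2068 CPM in untreated cells and 1335, 1270.1 and 1364 CPM with gefitinib at 75 µM. All treated libraries lay below the untreated ones, a fall of 1.47-fold (-0.55 ± 0.08 (adjusted p = 3.16e-07) on the log2 scale). SDF2L1, a partner of the co-chaperone DNAJB11, went from 92.2, 102 and 116 CPM to 67.6, 61.04 and 65.01 CPM, by -0.68 ± 0.12 (adjusted p = 9.93e-06). HSP90B1, the HSP90 of this compartment, was at 516, 456 and 457 CPM and then at 334, 369 and 329 CPM, with a log2 change of -0.47 ± 0.11. Neither gene's groups overlapped, both being lower with the drug. DNAJB11 fell by 0.41, and CRELD2, a secreted stress-response protein, by 0.51.

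Outside the chaperones, the isomerase PDIA4 fell by 0.49 ± 0.09 on the log2 scale, and TXNDC11, a thioredoxin-domain protein of the membrane, rose by 0.44 ± 0.08. Of the genes of import and export, SEC61B, a subunit of the translocation channel, fell from 143 ± 2.23 CPM (SD, n = 3) to 94.02 ± 4.198 CPM, by 0.60 on the log2 scale. SSR1, of the translocon-associated protein complex, fell by 0.51, and SEC24D, a cargo adaptor of the vesicles that leave for the Golgi, rose by 0.41 ± 0.10. At 50 µM 12 of 35 genes rose and 10 fell, where 54.4% of all genes tested were called, 27.6% higher and 26.8% lower. EIF2AK3 and HERPUD1 were at 1.10 and 1.06, and SDF2L1 and CALR at -0.79 and -0.61. Here the fall of MANF, a secreted chaperone-binding factor (-0.28), was lost without untreated library 1 or 3 or gefitinib library 1 or 3.

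Between the gefitinib doses 0 of 35 genes passed in edgeR's test, 0 at an unadjusted p under 0.05 and 0 in DESeq2, where 0.0317% of all genes tested were called. The log2 differences of the 35 ran from -0.17 to 0.27.

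**Figure D3:**
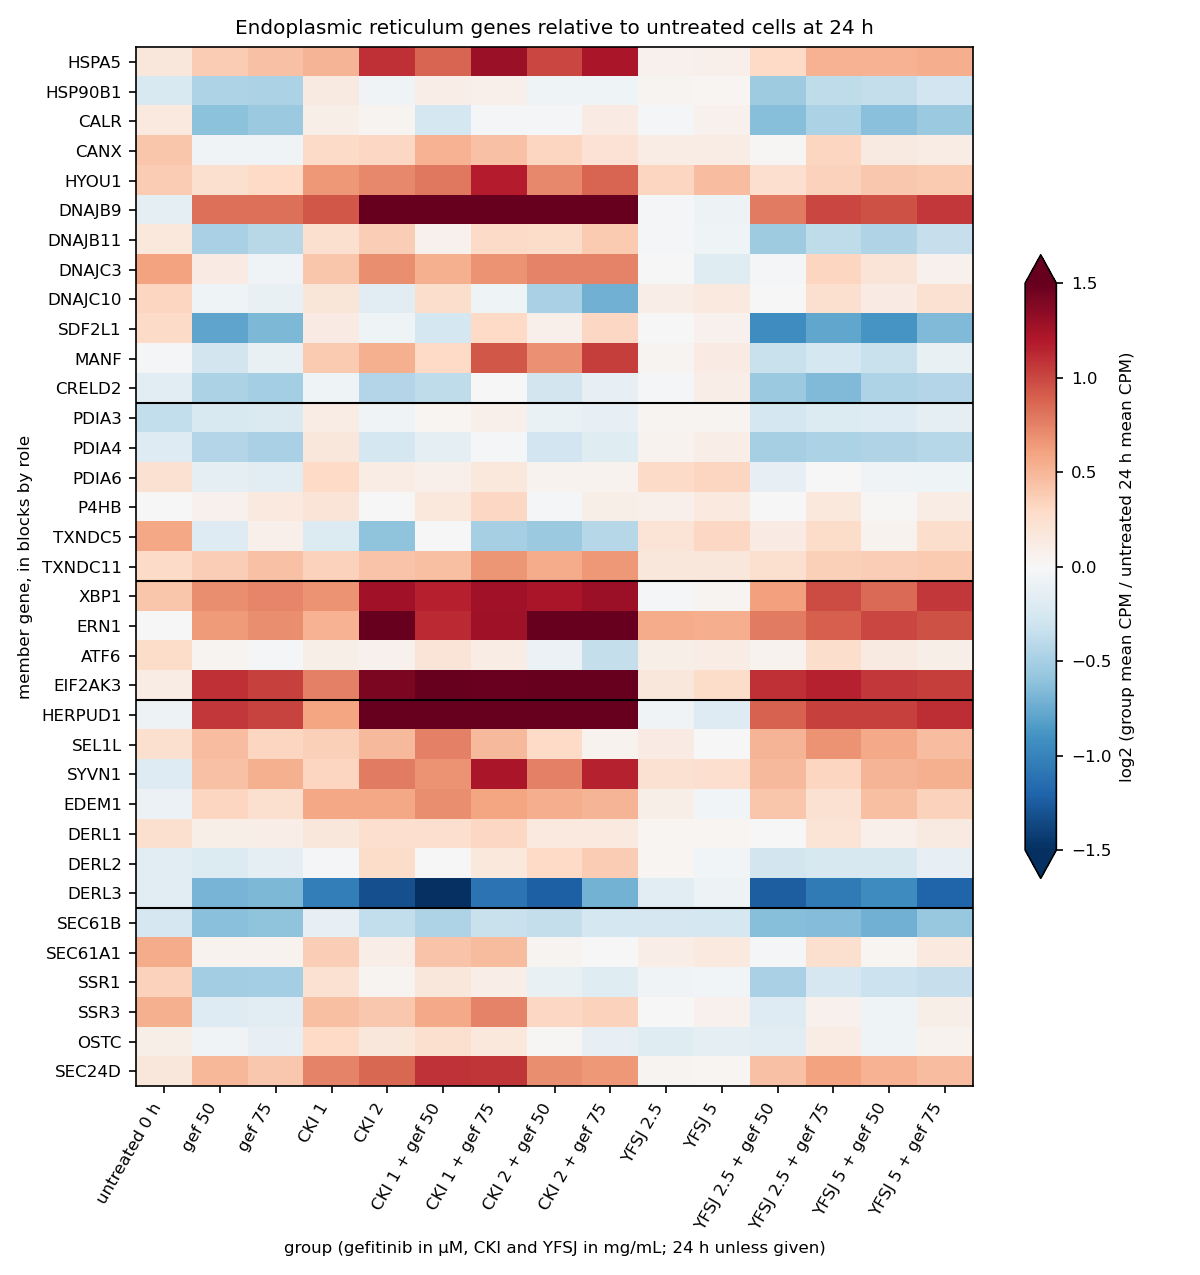
Colour gives log2 of the group mean CPM over the mean in untreated cells at 24 h (scale cut at 1.5 in both directions) for the 35 tested genes, in blocks by role, in the other 15 groups. Groups with CKI are red for DNAJB9, ERN1, EIF2AK3, HERPUD1, XBP1 and HSPA5, groups with gefitinib but no CKI are blue for SDF2L1, CALR and HSP90B1, and in the groups with YFSJ alone the deepest red is that of ERN1, at 0.56 and 0.54 with 2.5 and 5 mg/mL.

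The effect of CKI alone was read against the same untreated 24 h libraries, so that its values share their control with those of gefitinib. At 2 mg/mL 19 of 35 genes rose and 4 fell, where 24.1% of all genes tested were called higher and 27.1% lower, 51.2% in all. The median log2 fold change of the 35 was 0.28, against -0.01 for all genes tested, and library-size scaling would move the median of all genes up by 0.198. With that scaling 25 of the 35 were called higher and 2 lower. Libraries with CKI lay wholly above the untreated ones for 20 of the 36 genes and wholly below for 6. Of all genes tested 26.5% lay wholly above and 29.7% wholly below. The RNR2 share was also higher here than in untreated cells, 0.919% to 1.16%, and its part was not tested.

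The largest rise belonged to DNAJB9, at 14.7, 11.01 and 9.98 CPM in untreated cells and 66.4, 49.3 and 65.2 CPM with CKI at 2 mg/mL. Its lowest treated library was over 3 times the highest untreated one, a rise of 5.04-fold (2.33 ± 0.17 (adjusted p = 4.44e-15) on the log2 scale). HSPA5 went from 746, 724 and 736 CPM to 1651, 1421 and 1649.7 CPM, 2.14-fold and 1.10 ± 0.09 (adjusted p = 6.41e-14). The HSPA5 groups were far apart, although CKI library 2 was lower than the other two. HYOU1 rose by 0.72 ± 0.09, DNAJC3, an HSP40 co-chaperone that also restrains PERK, by 0.70 ± 0.15, and MANF by 0.53 ± 0.11.

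Of the sensor genes (XBP1 included) 3 of 4 rose, all but ATF6, where 24.1% of all genes tested rose. ERN1 had 9.21, 8.57 and 9.11 CPM in untreated cells and 29.5, 22.3 and 28.96 CPM with CKI at 2 mg/mL, 1.58 ± 0.12 (adjusted p = 1.93e-14) on the log2 scale. EIF2AK3 reached 39.9, 31.9 and 44.00 CPM, 1.41 ± 0.14 (adjusted p = 1.53e-11). XBP1 reached 268, 249.7 and 266 CPM, 1.26 ± 0.09 (adjusted p = 4.95e-15). All 3 groups lay wholly above the untreated libraries.

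Degradation genes rose in 6 of 7, where 24.1% of all genes tested rose. HERPUD1 had 145, 120.3 and 147 CPM with CKI at 2 mg/mL, all above the 51.02, 48.5 and 45.1 CPM of untreated cells, a change of 1.51 ± 0.12 (adjusted p = 1.54e-14). SYVN1 rose by 0.78 ± 0.14, EDEM1, which recognises mannose-trimmed glycoproteins, by 0.58 ± 0.11, and SEL1L by 0.49 ± 0.14. The derlins differed: DERL1 and DERL2 were at 0.25 and 0.28, whereas DERL3 fell from 11.8, 13.1 and 15.9 CPM to 6.28, 5.02 and 5.13 CPM, by -1.32 ± 0.20 (adjusted p = 4.87e-07). SMARCB1, which overlaps DERL3, was at -0.41 (adjusted p = 0.000615). The call of DERL2 was lost without untreated library 1 or 3 or CKI library 1 or 3, and that of CANX, the membrane lectin chaperone (0.31), without untreated library 2 or 3 or CKI library 1 or 3.

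CALR, SDF2L1 and HSP90B1 did not pass with CKI at 2 mg/mL. CALR had 1994 ± 125 CPM (SD, n = 3) against 1941 ± 116 CPM in untreated cells, SDF2L1 98.6 ± 11.5 CPM against 103 ± 11.98 CPM, and HSP90B1 459.9 ± 37.02 CPM against 477 ± 34.3 CPM. For these 3 genes the libraries of both groups overlapped. CRELD2 fell by 0.44 (adjusted p = 6.24e-05), SEC61B by 0.37 and PDIA4 by 0.26, and the last pair lost the call with library-size scaling. SEC24D rose by 0.86 ± 0.10 and SSR3, a partner of SSR1, by 0.40 ± 0.10.

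At 1 mg/mL 18 of 35 genes rose and 1 fell, where 13.2% of all genes tested were called higher and 14.7% lower, 27.9% in all. DNAJB9 rose by 0.92 ± 0.17, EIF2AK3 by 0.76 ± 0.14, SEC24D by 0.74 ± 0.10, XBP1 by 0.67 ± 0.09, HYOU1 by 0.65 ± 0.09 and HSPA5 by 0.51 ± 0.09. DERL3 was the gene that fell, by 1.03.

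The 2 CKI doses were set against each other, 2 minus 1 mg/mL. Of 35 genes 8 were higher and 6 lower at 2 mg/mL, where 32.7% of all genes tested were called, 15.1% higher and 17.6% lower; with library-size scaling 11 were higher and 2 lower. DNAJB9 was higher by 1.41 ± 0.16 (adjusted p = 5.41e-09), from 24.9, 19.7 and 23.5 CPM to 66.4, 49.3 and 65.2 CPM. ERN1 was higher by 1.06 ± 0.12 (adjusted p = 3.13e-09) and HERPUD1 by 0.91 ± 0.11 (adjusted p = 4.29e-08), with no overlap of libraries for any of the 3. Of all genes tested 21.1% were higher without overlap and 24.3% lower, beside 14 and 11 of the 36 genes. HSPA5, XBP1, EIF2AK3, SYVN1 and DERL2 were the other higher genes, the last losing its call without CKI library 1 or 3 of either dose. PDIA4 was lower at 2 mg/mL (-0.44, adjusted p = 0.000143), as were CRELD2 (-0.38) and DNAJC10, a disulfide reductase that works with BiP (-0.36). DNAJC10 lost its call without library 1 at 1 mg/mL or library 2 at 2 mg/mL and with library-size scaling. PDIA6, P4HB, the best known disulfide isomerase, and SEC61A1 were also lower, and these 3 lost the call with library-size scaling too. PDIA6 lost its call without any 1 of the 6 libraries, P4HB without library 2 at 1 mg/mL or library 1 or 3 at 2 mg/mL, and SEC61A1 without library 1 or 2 at 1 mg/mL or library 1 or 3 at 2 mg/mL.

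CKI was also added to gefitinib, and each pairing was compared with the same dose of gefitinib alone. With CKI at 2 mg/mL and gefitinib at 75 µM, 25 of 35 genes were higher and 2 lower than with gefitinib alone, where 28.8% of all genes tested were called higher and 29.4% lower, 58.2% in all. The median of the 35 was 0.34 on the log2 scale, against -0.01 for all genes tested. Libraries with both agents lay wholly above those with gefitinib alone for 25 of the 36 genes and wholly below for 4. Of all genes tested 32.9% lay wholly above and 33.6% wholly below. All 3 libraries of this pairing held liver transcripts. With that set as a batch term 23 genes were higher and 3 lower. Only CKI at 1 mg/mL with gefitinib at 75 µM and CKI at 2 mg/mL with gefitinib at 50 µM held both kinds of library. The term therefore rests on those groups and cannot tell liver RNA from other differences between their libraries. The RNR2 share was 1.39% to 1.56% in the pairing and 0.674% to 0.886% with gefitinib alone, and its part was not tested.

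Chaperones were higher in 11 of 12, where 28.8% of all genes tested were higher. DNAJB9 had 23.03, 19.2 and 20.9 CPM with gefitinib and 99.6, 89.6 and 81.8 CPM with both, 4.29-fold and 2.10 ± 0.16 (adjusted p = 1.95e-14) on the log2 scale. MANF went from 83.3, 84.97 and 83.3 CPM to 164, 191 and 199 CPM, by 1.14 ± 0.11 (adjusted p = 1.52e-11). SDF2L1 went from 67.6, 61.04 and 65.01 CPM to 120.5, 133 and 132 CPM, by 0.99 ± 0.12 (adjusted p = 5.19e-09). In each of the 3 genes all libraries with both agents were above all libraries with gefitinib alone.

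HSPA5 rose from 1010.4, 1016 and 966 CPM to 1774, 1686 and 1704 CPM, by 0.79 ± 0.09 (adjusted p = 3.44e-10). CALR rose from 1335, 1270.1 and 1364 CPM to 2009.97, 2173 and 2149 CPM, by 0.67 ± 0.08 (adjusted p = 4.5e-09), beside 1941 ± 116 CPM (SD, n = 3) in untreated cells. HSP90B1 was higher by 0.41 ± 0.11, DNAJB11 by 0.81 ± 0.08 and CRELD2 by 0.39 ± 0.09. The exception was DNAJC10, which had 72.8, 80.7 and 64.9 CPM with gefitinib and 48.5, 49.3 and 45.2 CPM with both (-0.61 ± 0.12 (adjusted p = 1.99e-05)), every library with both being lower.

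HERPUD1 went from 95.4, 105 and 92.1 CPM to 216, 184 and 197 CPM, by 1.03 ± 0.11 (adjusted p = 2.47e-10), and ERN1 from 13.8, 14.8 and 15.1 CPM to 29.5, 28.5 and 30.8 CPM, by 1.02 ± 0.12 (adjusted p = 6.59e-10). Neither gene's groups overlapped. EIF2AK3 and XBP1 were higher by 0.83 ± 0.13 and 0.54 ± 0.09, while ATF6 was lower by 0.34 ± 0.09 on the log2 scale. SEC61B and SSR1 were higher by 0.34 and 0.32. With the batch term CANX and EDEM1 lost the call. The calls of CANX, EDEM1 and SEC24D, at 0.27, 0.26 and 0.24, depended on single libraries: each lost its call without gefitinib library 1 or 3 or library 1 or 2 of the pairing, and EDEM1 and SEC24D also without gefitinib library 2.

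With CKI at 1 mg/mL and gefitinib at 75 µM, 29 of 35 genes were higher and 0 lower than with gefitinib alone in edgeR's test (30 called by DESeq2, and 31 in either direction at an unadjusted p under 0.05), where 17.3% of all genes tested were called higher and 17.3% lower, 34.6% in all. Library 1 of this pairing stood apart: its summed level was 12487 CPM against 9951 and 10353 CPM in libraries 2 and 3, and it was the highest of its group for 33 of the 35 genes. It was also the one library of the group with no liver transcripts. The RNR2 share was 1.04% to 1.09% in this group, and its part was not tested. Without it 22 genes were called; PDIA3, TXNDC11, EIF2AK3, EDEM1, DERL1, DERL2, SEC61B and OSTC lost the call, and DERL3, which had not passed, was called lower at -0.66. HSPA5 was at 2289, 1538 and 1596 CPM there, 0.86 over gefitinib alone with all libraries and 0.65 without library 1. The largest rises with all libraries were DNAJB9 (1.35), MANF (1.03) and SDF2L1 (0.98), at 0.999, 0.77 and 0.80 without library 1. With the liver set as a batch term, which here also carries the difference of library 1, 27 genes were higher and 1 lower.

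At 50 µM gefitinib, CKI at 1 mg/mL left 23 of 35 genes higher and 1 lower (15.6% and 16.2% of all genes tested, 31.8% in all), and CKI at 2 mg/mL left 20 higher and 2 lower (26.6% and 27.1%, 53.6% in all). The RNR2 share was 1.02% to 1.197% and 1.13% to 1.32% in these pairings, above gefitinib alone, and its part was not tested. DNAJB9 was higher by 0.80 ± 0.16 and 1.84 ± 0.16, MANF by 0.58 ± 0.11 and 0.96 ± 0.11, and SDF2L1 by 0.54 ± 0.12 and 0.88 ± 0.12. SSR3 and SSR1 were higher by 0.76 and 0.70 at the lower CKI dose. DERL3 was lower at both, by 1.10 and 0.52 on the log2 scale. The second of these calls was lost without gefitinib library 1 or 2 or library 3 of the pairing, with library-size scaling and with the batch term.

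**Figure D4:**
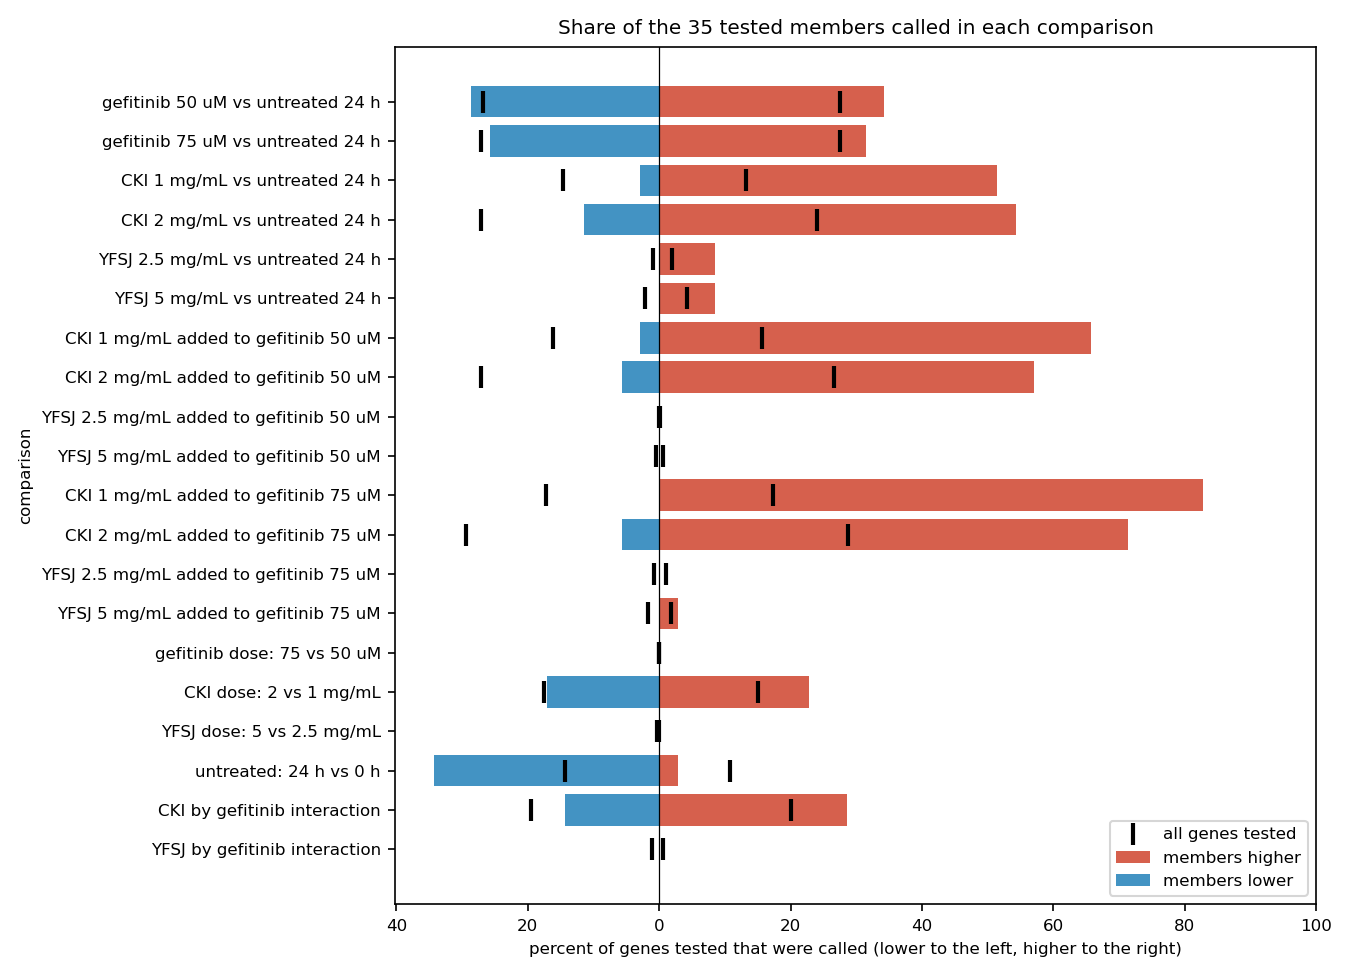
Percent of the 35 tested genes called in each comparison (horizontal axis, lower to the left and higher to the right of 0), with black ticks for all genes tested. With CKI, alone or added to gefitinib, the bar of higher genes is longer than its tick, reaching 29 of 35 genes for CKI at 1 mg/mL added to gefitinib at 75 µM, and with YFSJ it holds at most 3 genes.

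The interaction contrast asked whether CKI changed a gene by a different amount with gefitinib than without it, averaged over the 4 dose pairs. Of 35 genes 10 had a more positive CKI effect with gefitinib and 5 a more negative one, where 39.5% of all genes tested were called, 20% and 19.5%. The share called, 42.9%, was thus near that of all genes. Of the 10, 6 were among the 12 chaperone genes, the role with most genes. Of the 5, EIF2AK3 and XBP1 were among the 4 sensor genes (XBP1 included). No test was made by role.

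SDF2L1 had the largest difference, 0.82 ± 0.13 (adjusted p = 1.5e-06). Its mean was 103 ± 11.98 CPM (SD, n = 3) in untreated cells, 98.6 ± 11.5 CPM with CKI at 2 mg/mL, 64.6 ± 3.32 CPM with gefitinib at 75 µM and 128 ± 6.81 CPM with both. So the level was lower with gefitinib alone than in the other 3 groups. CALR was likewise lowest with gefitinib alone among these 4 groups, and its interaction was 0.47 ± 0.09 (adjusted p = 2.95e-05). CRELD2 was at 0.55 ± 0.09 (adjusted p = 6.14e-06), HSP90B1 at 0.44 ± 0.12, MANF at 0.47 ± 0.12, DNAJB11 at 0.40 ± 0.08 and PDIA4 at 0.35 ± 0.09. Among the import genes SEC61B was at 0.51 ± 0.11 and SSR1 at 0.38 ± 0.11. DERL3 was at 0.66 ± 0.21 (adjusted p = 0.0104), and lost the call without untreated library 3.

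On the other side, EIF2AK3 was at -0.51 ± 0.15 (adjusted p = 0.00451). It had 14.5 ± 1.26 CPM (SD, n = 3) in untreated cells, 38.6 ± 6.17 CPM with CKI at 2 mg/mL, 29.6 ± 0.519 CPM with gefitinib at 75 µM and 52.5 ± 4.55 CPM with both. The level with both was the highest of the 4, though below what the separate log2 changes would add up to. XBP1 was at -0.45 ± 0.10 (adjusted p = 0.000249) and SEC24D at -0.38 ± 0.11. SEL1L, at -0.41, lost its call without untreated library 2 or 3 or library 3 of gefitinib at 50 µM, and TXNDC11, at -0.21, without any 1 of 7 libraries. HSPA5 (-0.12), DNAJB9 (-0.10), HERPUD1 (-0.27) and ERN1 (-0.31) did not pass. With the liver set as a batch term the split was 11 more positive and 2 more negative. SEL1L, SEC24D and TXNDC11 lost the call, and EIF2AK3 and XBP1 kept it. HSPA5 and DNAJB9 took the opposite sign, at 0.039 and 0.14. DNAJB9 did so without untreated library 3 too, at 0.0095. The batch term rests in part on the outlying library 1 of CKI at 1 mg/mL with gefitinib at 75 µM. It cannot separate liver RNA from the other differences of that library.

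**Figure D5:**
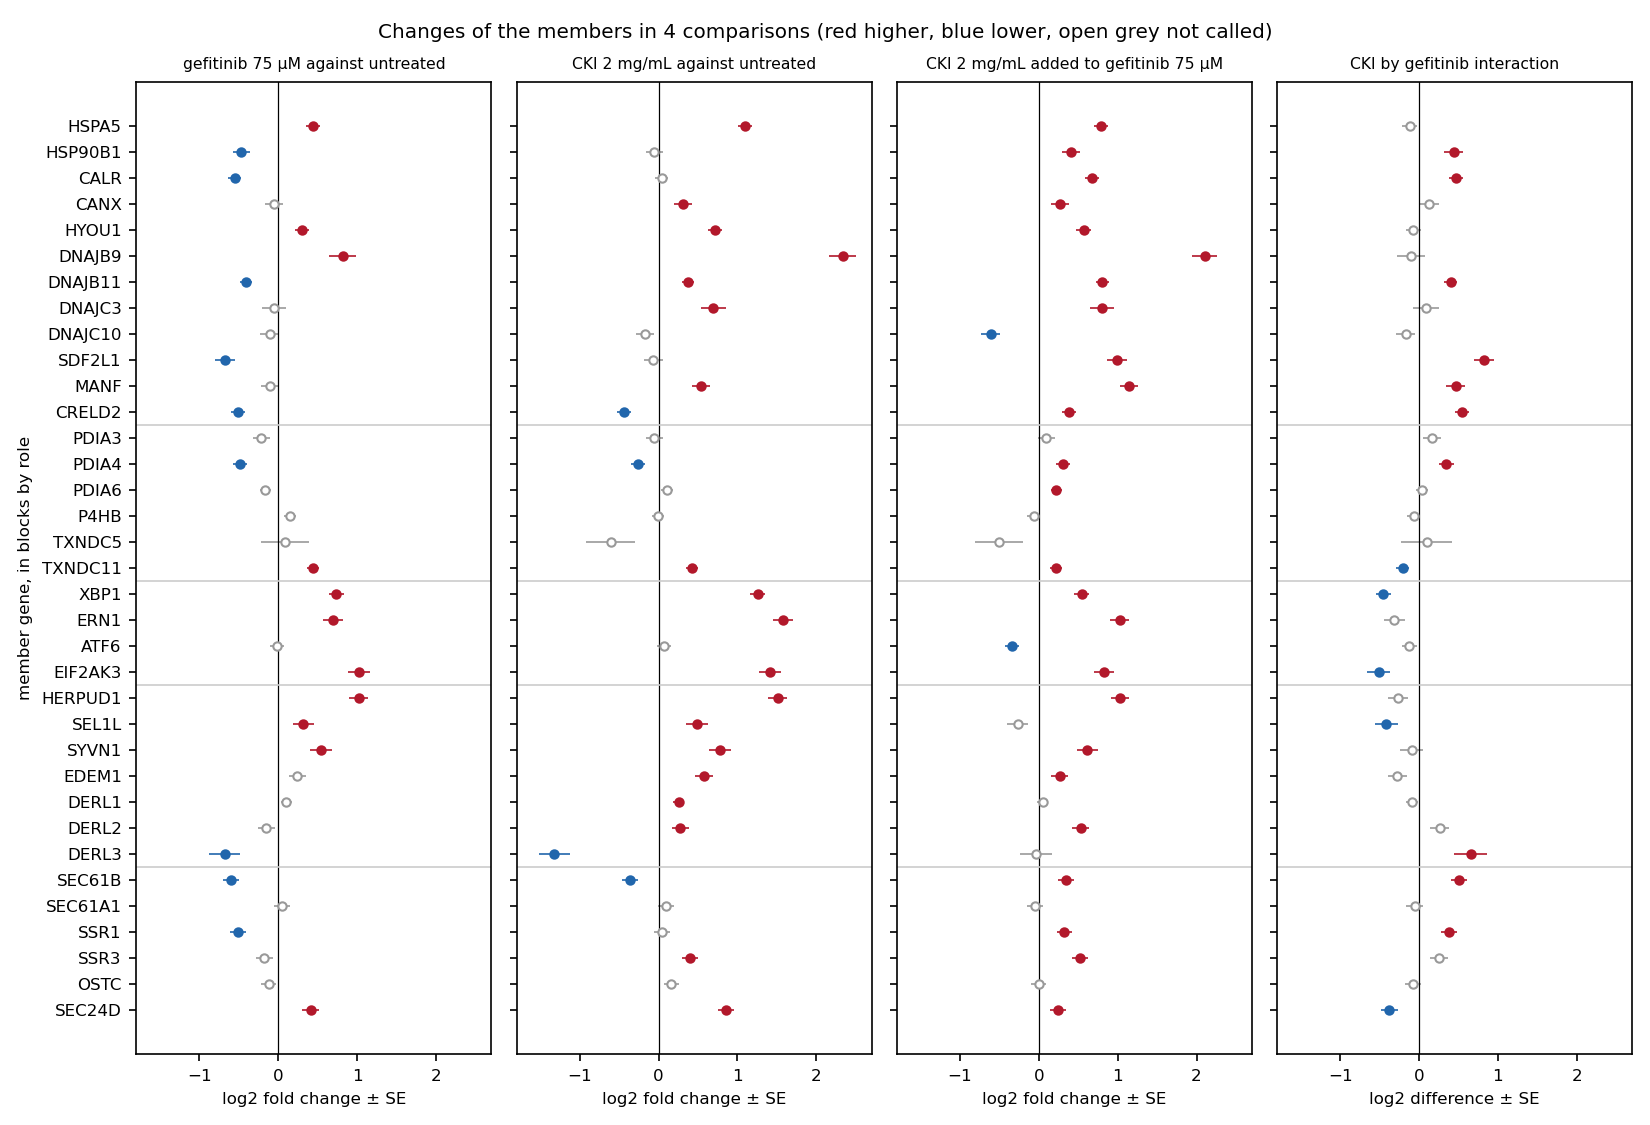
Log2 fold change ± SE (horizontal axes) of the 35 tested genes in blocks by role, for gefitinib at 75 µM, CKI at 2 mg/mL, CKI at 2 mg/mL added to gefitinib at 75 µM, and the interaction; red is called higher, blue called lower and open grey not called. SDF2L1, CALR and HSP90B1 are blue with gefitinib, grey with CKI and red in the last pair, whereas EIF2AK3 and XBP1 are red in the first 3 panels and blue in the interaction.

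YFSJ was compared in the same ways. At 2.5 and at 5 mg/mL 3 of 35 genes rose, where 2.94% and 6.48% of all genes tested were called, 2.02% and 4.28% higher and 0.918% and 2.2% lower; DESeq2 called 3 at each dose, and 5 at each dose were at an unadjusted p under 0.05. At both doses they were HYOU1 (0.33 and 0.46), PDIA6, an isomerase that binds sensors of the response (0.29 and 0.32), and ERN1 (0.56 and 0.54). HYOU1 had 232, 204 and 229.9 CPM in untreated cells, 276, 271 and 289 CPM at 2.5 mg/mL and 312, 296 and 308 CPM at 5 mg/mL. Each YFSJ library lay above the untreated ones. Of all genes tested 11.3% did so at 2.5 mg/mL and 13% at 5 mg/mL, while 11.5% and 13.7% lay wholly below. The RNR2 share was 0.318% to 0.477% and 0.323% to 0.384% at these doses, and its part was not tested. At 2.5 mg/mL, where every library held liver transcripts, 0 genes passed with that set as a batch term. The size of that term came only from libraries of CKI with gefitinib. The calls there were also fragile to single libraries, with 0 left without untreated library 2 or YFSJ library 3, 1 left without YFSJ library 2, and 2 left without any other of the 6. At 5 mg/mL PDIA6 lost its call without untreated library 2, and ERN1 without YFSJ library 3.

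Added to gefitinib, YFSJ left 0 of 35 genes called at 2.5 mg/mL with 50 µM (0.0887% of all genes tested, 0.0633% higher and 0.0253% lower), 0 at 5 mg/mL with 50 µM (0.937%, 0.532% higher and 0.405% lower) and 0 at 2.5 mg/mL with 75 µM (1.83%, 0.994% higher and 0.836% lower) in edgeR's test. At an unadjusted p under 0.05 there were 1, 1 and 10, and DESeq2 called 0, 0 and 2. Without library 1 or without library 3 of the pairing at 2.5 mg/mL and 75 µM, 3 genes passed in each case; its library 2 stood apart with 2.18% of counts in RNR2. Without library 3 of the pairing at 5 mg/mL and 50 µM, 1 gene passed. At 5 mg/mL with 75 µM XBP1 alone passed, by 0.32 ± 0.09 (adjusted p = 0.0375), where 3.46% of all genes tested were called, 1.79% higher and 1.67% lower. XBP1 had 187, 180.3 and 179 CPM with gefitinib and 243, 228 and 212 CPM with both, with no overlap. Of all genes tested 13.9% were higher without overlap and 12% lower. The XBP1 call was lost without any 1 of the 3 gefitinib libraries or of libraries 1 and 2 of the pairing. Between the YFSJ doses 0 genes passed (0.374% of all genes tested, 0.019% higher and 0.355% lower; 0 at an unadjusted p under 0.05 and 0 in DESeq2). In the interaction of YFSJ with gefitinib 0 passed as well (1.7%, 0.646% and 1.05% by sign; 6 at an unadjusted p under 0.05 and 2 in DESeq2). A p that misses the threshold does not show that the levels were alike: the log2 differences between the YFSJ doses ran from -0.19 to 0.13.

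Over the day in culture, 24 h against 0 h, 1 of 35 genes was higher and 12 lower in untreated cells, where 25.2% of all genes tested were called, 10.8% higher and 14.4% lower. DNAJC3 fell by 0.60, SEC61A1, the pore subunit of the translocation channel, by 0.55 and SSR3 by 0.53 on the log2 scale. PDIA3, the isomerase that works with calnexin and calreticulin, rose by 0.37, with libraries that overlapped. With library 3 as the only one at 0 h, its spread taken from the other groups, 0 genes were called; the 12 lower genes kept their sign, with DNAJC3 at -0.12, SEC61A1 at -0.10 and SSR3 at -0.41, and PDIA3 was at -0.11. With 1 library in that arm the lost calls do not show that the levels were alike; a fit of only these 6 libraries also called 0, and library-size scaling called 3 higher and 6 lower. Leaving out 0 h library 1 left 3 genes, and leaving out 0 h library 3 gave 19.

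Lists of neighbouring genes place these values. Of 17 tested genes of the ATF4 and CHOP arm, which lies downstream of PERK and of other stress kinases, 16 rose with gefitinib at 75 µM (median 1.75; 27.6% of all genes tested) and 16 with CKI at 2 mg/mL (median 1.78; 24.1% of all genes). The largest rises were NUPR1, a stress-response chromatin protein (3.58), and CHAC1, which degrades glutathione (3.31), with gefitinib, and the cystine importer SLC7A11 (3.93) and ATF3 (3.66) with CKI. When CKI at 2 mg/mL was added to gefitinib at 75 µM, 7 were higher and 6 lower (28.8% and 29.4% of all genes), with ATF3 at 2.67, PPP1R15A, a phosphatase subunit that restores translation, at 1.83 and PHGDH, of serine synthesis, at -1.18. In the interaction 15 of these 17 had a more negative CKI effect with gefitinib (median -1.05; 19.5% of all genes).

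The counts below are read against the shares of all genes tested: 27.6% higher and 27.1% lower with gefitinib at 75 µM, and 24.1% higher and 27.1% lower with CKI at 2 mg/mL. Of 29 other genes of the translocon, signal peptidase and oligosaccharyltransferase, 1 rose and 16 fell with gefitinib at 75 µM (median -0.30), among them the signal recognition particle genes SRP9 (-0.79) and SRP19 (-0.61), while TRAM1 rose (0.33). With CKI at 2 mg/mL 6 rose and 9 fell, and when it was added to gefitinib at 75 µM 12 were higher and 4 lower (28.8% and 29.4% of all genes), SRP19 at 0.75. The interaction was more positive in 9 of them (20% of all genes). Of 23 other degradation genes 7 rose and 6 fell with gefitinib at 75 µM, and 11 rose and 3 fell with CKI at 2 mg/mL; the share called was 56.5% and 60.9%, against 54.7% and 51.2% of all genes. The largest rise with gefitinib was that of SEL1L3 (1.49), and the highest log2 change of the list with CKI was 1.33. UFD1, a cofactor of the p97 ATPase that pulls proteins from the membrane, fell in both (-0.73 and -0.55). The gene of that ATPase, VCP, fell with CKI (-0.59). Of 36 other folding genes 10 rose and 10 fell with gefitinib and 8 rose and 8 fell with CKI at those doses, 55.6% and 44.4% called and so near or below all genes, with CRELD1, a relative of CRELD2, higher in both (1.17 and 1.26). ERO1B, an oxidase that supplies disulfide bonds, rose with CKI (1.29). TMX2 had the largest fall with gefitinib (-0.74), and the lowest log2 change of the list with CKI was -0.62.

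Of 27 genes of vesicle transport between the endoplasmic reticulum and the Golgi, 4 rose and 9 fell with gefitinib at 75 µM, among them the coat GTPase SAR1B (-0.55), and 7 rose and 3 fell with CKI at 2 mg/mL, with the coat gene SEC23B at 0.58. The shares called, 48.1% and 37.0%, were below the 54.7% and 51.2% of all genes. Of 20 other regulators and targets of the response, 5 rose and 3 fell with gefitinib (40% called) and 7 rose and 6 fell with CKI (65% called). With CKI the log2 changes of these 20 ran from -2.31 to 2.08, the highest being BHLHA15, a transcription factor of secretory cells. When CKI at 2 mg/mL was added to gefitinib at 75 µM, 3 were higher and 9 lower (28.8% and 29.4% of all genes). BHLHA15 was at 2.60 there, and the lowest of the list at -1.12. The medians of the 4 lists of folding, degradation, vesicle and other genes lay between -0.14 and 0.19 with gefitinib at 75 µM and between -0.04 and 0.12 with CKI at 2 mg/mL, against 0.02 and -0.01 for all genes tested.

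Genes that share an ERSE or an ERSE-II moved in both directions with gefitinib at 75 µM, where 27.6% of all genes tested were higher and 27.1% lower. Of the 7 genes with an ERSE, HSPA5 and XBP1 rose with gefitinib at 75 µM, HSP90B1, CALR and CRELD2 fell, and 2 did not pass. With CKI at 2 mg/mL 3 rose, 1 fell and 3 did not pass (24.1% and 27.1% of all genes). When CKI at 2 mg/mL was added to gefitinib at 75 µM, all 7 were higher, as were the 3 genes with an ERSE-II, where 28.8% of all genes were higher and 29.4% lower; of those 3, HYOU1 and HERPUD1 had risen with gefitinib alone and SDF2L1 had fallen. Of the 4 genes with a UPRE, 1 rose and 3 did not pass with gefitinib at 75 µM, and 2 rose with CKI at 2 mg/mL. When CKI at 2 mg/mL was added to gefitinib at 75 µM, HYOU1 and SSR3 were higher, DNAJC10 was lower and TXNDC5 did not pass. These are counts over genes chosen for their role, and no test was made of them.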

How the data were processed

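RNA of 48 libraries was measured by unstranded paired-end sequencing, and the authors deposited raw counts per gene symbol. Trim Galore 0.4.2, STAR 2.5.3a, edgeR and the build hg19 are named, per the submitters' processing notes; the counting tool, annotation and strand setting are not given in the sources used here. All 48 columns mapped to samples, and no replicate pair was identical (chi-square per gene 3.68 to 67.7).

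Counts were fitted in R 4.3.3 with edgeR 4.0.16: filterByExpr (minimum count 10, minimum total 15) left 15789 genes with 99.97% of counts, then TMM factors and a robust quasi-likelihood fit of all 48 libraries with 1 mean per group (32 residual degrees of freedom). Contrasts were tested two-sided and adjusted by Benjamini-Hochberg across the 15789 genes; a gene is called, or said to rise or fall, when its adjusted p is under 0.05. The SE is the log2 fold change divided by the square root of F. An interaction is the change with both agents less the sum of the single-agent changes, averaged over 4 dose pairs.

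The 36 genes, the roles, the neighbouring gene lists (154 genes, 5 matched by synonym) and the alternatives were chosen with earlier results of these data known. Names were drawn from 9 set genes (HSPA5, HSP90B1, HERPUD1, DNAJB9, XBP1, SDF2L1, MANF, CRELD2 and DERL3), the 3 largest called rises and falls per comparison, and the 2 largest per neighbouring list. Not all of these are given for every comparison or list, so the named genes are not always the largest changes. Other genes were chosen after their values were seen. Promoters are RefSeq's for GRCh38.p14. The fit was tested on simulated data. Replicate numbers were checked for pairing by the correlation of deviations from group means; they paired the libraries only between the YFSJ doses (0.115 to 0.285 in the 3 pairs), and the labels do not say that they do. Alternatives were relative log expression factors, library-size scaling, no filter, the replicate number as a block, a batch term for the 10 libraries whose ALB count exceeded 1000, adjusted p under 0.01, DESeq2 1.42.0, fits of only the libraries compared, only library 3 at 0 h, and each library left out.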

Additional observations from a re-analysis of the deposited data

Results flagged for a closer look

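For 15 of the 35 tested genes (42.9%) the effect of CKI differed with and without gefitinib, a share near the 39.5% of all genes tested. The test was of the difference itself over the 4 dose pairs (edgeR's quasi-likelihood test, Benjamini-Hochberg adjustment over all genes tested). Values are log2 differences, and no explanation was tested. More positive with gefitinib were SDF2L1 (0.82), DERL3 (0.66), CRELD2 (0.55), SEC61B (0.51), CALR (0.47), MANF (0.47), HSP90B1 (0.44), DNAJB11 (0.40), SSR1 (0.38) and PDIA4 (0.35). More negative were EIF2AK3 (-0.51), XBP1 (-0.45), SEL1L (-0.41), SEC24D (-0.38) and TXNDC11 (-0.21). DERL3, whose values are uncertain beside its overlapping neighbour SMARCB1, lost its call without untreated library 3. With the liver set as a batch term the calls of SEL1L, SEC24D and TXNDC11 were lost, at -0.42, -0.28 and -0.15, and those of the other 12 were kept.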

How the results depend on the processing

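Over the 20 comparisons, counts of called genes among the 35 stayed within 1.5 times the main count with relative log expression factors, library-size scaling and the replicate number as a block. Each other setting moved at most 3 of them. With YFSJ at 2.5 mg/mL, 3 genes became 1 without a filter on low counts, 1 at adjusted p under 0.01 and 0 with the liver batch term. With YFSJ at 2.5 mg/mL added to gefitinib at 75 µM, 0 became 2 in DESeq2. For YFSJ at 5 mg/mL added to gefitinib at 75 µM, 1 became 0 without a filter, 0 at adjusted p under 0.01 and 3 in a fit of only the libraries compared. The CKI dose contrast fell from 14 to 9 at adjusted p under 0.01, and 24 h against 0 h from 13 to 0 in a fit of only its libraries and 0 with only library 3 at 0 h, whose spread is then taken from the other groups. The YFSJ by gefitinib interaction rose from 0 to 1 with the batch term, 2 in DESeq2 and 1 with only its libraries. Apart from fewer samples or a stricter threshold, the cause was not tested.

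Opposite signs were seen for PDIA3 at 24 h against 0 h (-0.11 with only library 3 at 0 h) and for HSPA5 and DNAJB9 in the CKI by gefitinib interaction (0.039 and 0.14 with the batch term, neither called). Without single untreated libraries DNAJB9 there ran from -0.29 to 0.0095. The neighbouring gene DDOST, of the oligosaccharyltransferase, was at -0.037 for 24 h against 0 h with only library 3 at 0 h. No other named value changed sign.

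Leaving out each library in turn, the counts ran from 20 to 22 for gefitinib at 50 µM and 19 to 21 at 75 µM, 15 to 20 and 21 to 23 for CKI at 1 and 2 mg/mL, 0 to 2 and 2 to 3 for YFSJ at 2.5 and 5 mg/mL, 19 to 26 and 18 to 22 for CKI at 1 and 2 mg/mL added to gefitinib at 50 µM, 22 to 29 and 24 to 27 for CKI added at 75 µM, 0 to 0 and 0 to 1 for YFSJ added at 50 µM, 0 to 3 and 0 to 1 for YFSJ added at 75 µM, 10 to 12 for the CKI dose, 3 to 19 for 24 h against 0 h, and 12 to 18 for the CKI interaction. They stayed at 0 for the doses of gefitinib and of YFSJ and for the YFSJ interaction.

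Replicate numbers paired the libraries in 1 of 18 comparisons; in the others they share only a number, and in none of those did every library correlate best with its own number. With the replicate block the count was 19 for gefitinib at 75 µM, 18 for CKI at 1 mg/mL and 16 for the CKI interaction, and was the same as without it in the other 17.

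Depth limits TXNDC5 and DERL3 most among the tested genes, at medians of 110.5 and 140 counts, and EDEM2, at a median of 4 counts, was too low to test.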
